A study of Mus musculus with 7 samples.

Results

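Krt31, Krt32, Krt33a, Krt33b, Krt34, Krt35, Krt36, Krt81, Krt85 and Krt86 encode keratins of the hair shaft, and were taken by symbol from a list of hair shaft keratins. All 10 were found among the 22552 gene symbols of a table of skin RNA from mice at postnatal day 50. The table holds 7 libraries of total RNA from cells purified by flow cytometry, 1 per group, from mice whose strain label names CD1 and C3H. Epidermal cells were taken from the ear of mice with 1 copy of the Koa allele (genotype Wt/Koa) and from the ear and the back of wild-type mice (Wt/Wt, here WT). Dermal cells were taken from the same 3 sources and from the tail of WT mice. The tail library is called dermis by its title, and its labels name no sorted layer. Koa is a dominant allele with an inversion on chromosome 15 and hairy ears, and the libraries set Koa ear skin beside the less hairy WT ear and the hairy WT back. Wt/Koa mice carry 1 normal copy, and the number of animals behind each library is not given in the sources used here. With 1 library per group no difference has a replicate check, so no test was made and no p-value is given.

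The hair shaft is built from keratin filaments that form inside the growing follicle. Each filament pairs a type I keratin (Krt31 to Krt36 here) with a type II keratin (Krt81, Krt85 and Krt86). Krt35 and Krt85 are the earliest of the set to appear as matrix cells enter the shaft, Krt31, Krt33a, Krt33b and Krt34 belong to the cortex together with Krt81 and Krt86, and Krt32 is a keratin of the cuticle. Krt36 is also known from the tongue papillae and from the scale epidermis of the tail. In resting follicles these genes are mostly silent, and the transcription factors Hoxc13, Foxn1 and Lef1 are known to act on them.

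The type I and type II genes lie in separate clusters. The 7 type I genes stood on chromosome 11 between 100011195 and 100105626 (GENCODE M21, GRCm38), a stretch of 94.4 kb, and all were transcribed from the minus strand. Krt81 (101459061 to 101463751, minus strand) and Krt86 (101473478 to 101479986, plus strand) stood on chromosome 15 within 20.9 kb. Krt85 was not matched in that annotation, and no position is printed for it. RefSeq promoter sequences (GRCm38.p6) were matched for 5 of the 10 genes, Krt31, Krt32, Krt33b, Krt34 and Krt36. They are shown because Krt32 departed from the other members in the ear and back libraries, and Krt36 in the tail library, as described further on. Krt31 and Krt33b had the order of the majority in ear and back epidermis. Each run holds the 250 bases before the RefSeq start, 5′ to 3′ on the minus strand of the chromosome. Capitals mark CTTTGAAG, TTTAT or TATAAA on either strand.
Krt31 (chr11:100050552-100050801): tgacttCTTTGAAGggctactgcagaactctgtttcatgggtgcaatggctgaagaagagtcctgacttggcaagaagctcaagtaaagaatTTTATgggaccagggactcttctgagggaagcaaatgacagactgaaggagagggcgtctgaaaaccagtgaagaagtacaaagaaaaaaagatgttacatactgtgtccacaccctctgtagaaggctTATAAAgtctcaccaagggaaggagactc
Krt32 (chr11:100088270-100088519): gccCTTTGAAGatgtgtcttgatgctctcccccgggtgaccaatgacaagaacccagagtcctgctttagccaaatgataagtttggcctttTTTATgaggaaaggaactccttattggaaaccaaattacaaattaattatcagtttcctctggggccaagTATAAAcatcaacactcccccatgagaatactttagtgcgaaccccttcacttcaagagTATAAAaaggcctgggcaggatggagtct
Krt33b (chr11:100029869-100030118): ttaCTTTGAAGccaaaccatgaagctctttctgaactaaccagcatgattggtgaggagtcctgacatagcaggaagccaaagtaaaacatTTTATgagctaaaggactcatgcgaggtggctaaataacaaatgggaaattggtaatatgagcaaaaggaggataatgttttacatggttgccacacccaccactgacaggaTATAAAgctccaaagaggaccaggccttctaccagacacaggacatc
Krt34 (chr11:100041555-100041804): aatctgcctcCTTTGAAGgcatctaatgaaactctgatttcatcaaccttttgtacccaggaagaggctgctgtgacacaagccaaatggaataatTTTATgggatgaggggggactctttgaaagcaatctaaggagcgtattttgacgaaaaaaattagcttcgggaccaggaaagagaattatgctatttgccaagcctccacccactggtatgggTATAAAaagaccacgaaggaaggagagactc
Krt36 (chr11:100105627-100105876): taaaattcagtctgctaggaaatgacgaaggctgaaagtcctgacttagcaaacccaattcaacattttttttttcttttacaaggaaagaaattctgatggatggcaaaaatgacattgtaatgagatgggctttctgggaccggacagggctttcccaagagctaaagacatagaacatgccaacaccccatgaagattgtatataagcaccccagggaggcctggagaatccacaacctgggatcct

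The run CTTTGAAG was noticed in these promoters and then searched for, so its count is a description only. It stood in 4 of the 5, at 244 to 237 bases before the start in Krt31, 247 to 240 in Krt32, 247 to 240 in Krt33b and 240 to 233 in Krt34. It holds CTTTG, the core of the sites bound by Lef1 and its relatives. On either strand it stood in 1.42% of the 32851 RefSeq promoters of this length, in 1 of 4 matched promoters of the other hair keratins (Krt39, on the reverse strand), in 0 of 8 inner root sheath genes and in 0 of 5 epidermal keratin genes (Krt2, Krt5, Krt10, Krt14 and Krt77). TTTAT, a core described for Hoxc13 sites, stood in 4 of the 5 and in 37.3% of all promoters. Its reverse complement overlaps TATAAA, which stood in 4 of the 5 and in 12.4% of all promoters. CTTTG alone stood in 4 of the 5 and in 48.6% of all, and TTAAT, another Hoxc13 core, stood in Krt32 only and in 24.9% of all. In Krt36 none of these runs was in the window. Only exact runs were searched, so a variant such as the tatataag printed for Krt36 was not counted. CTTTGAAG, TTTAT and TATAAA thus stood in Krt32 as in Krt31, Krt33b and Krt34, and TTAAT stood in Krt32 alone of the 5.

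The unit throughout is FPKM, the number of fragments divided by transcript length and by the mapped fragments of the library, as the authors deposited it. From the steps that whole fragments leave in low values, the depth of the 6 ear and back libraries came to between 31.6 and 40.4 M fragments (M, mega), and the depth of the tail library is unknown. Ratios below carry 95% intervals computed from these depths. The intervals cover counting error only, not variation between animals, and Krt85 has none because no transcript length was matched. Several members are close copies. Of the 50-base runs of their GENCODE transcripts, 43.5% in Krt81 and 43.3% in Krt86 also occur in another gene, mostly in each other and in Krt83. In Krt31, Krt33a, Krt33b and Krt34 the share was 21.9% to 33.1%, mostly among themselves, in Krt35 it was 3.95%, in Krt36 0.432% and in Krt32 0. Over their best aligned stretch Krt81 and Krt86 were 95.1% identical, and Krt31 and Krt33b 93.3%. How the authors divided shared reads is not given in the sources used here, so the split of counts within these copies is uncertain, while Krt32, Krt35 and Krt36 are little touched.

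**Figure D1:**
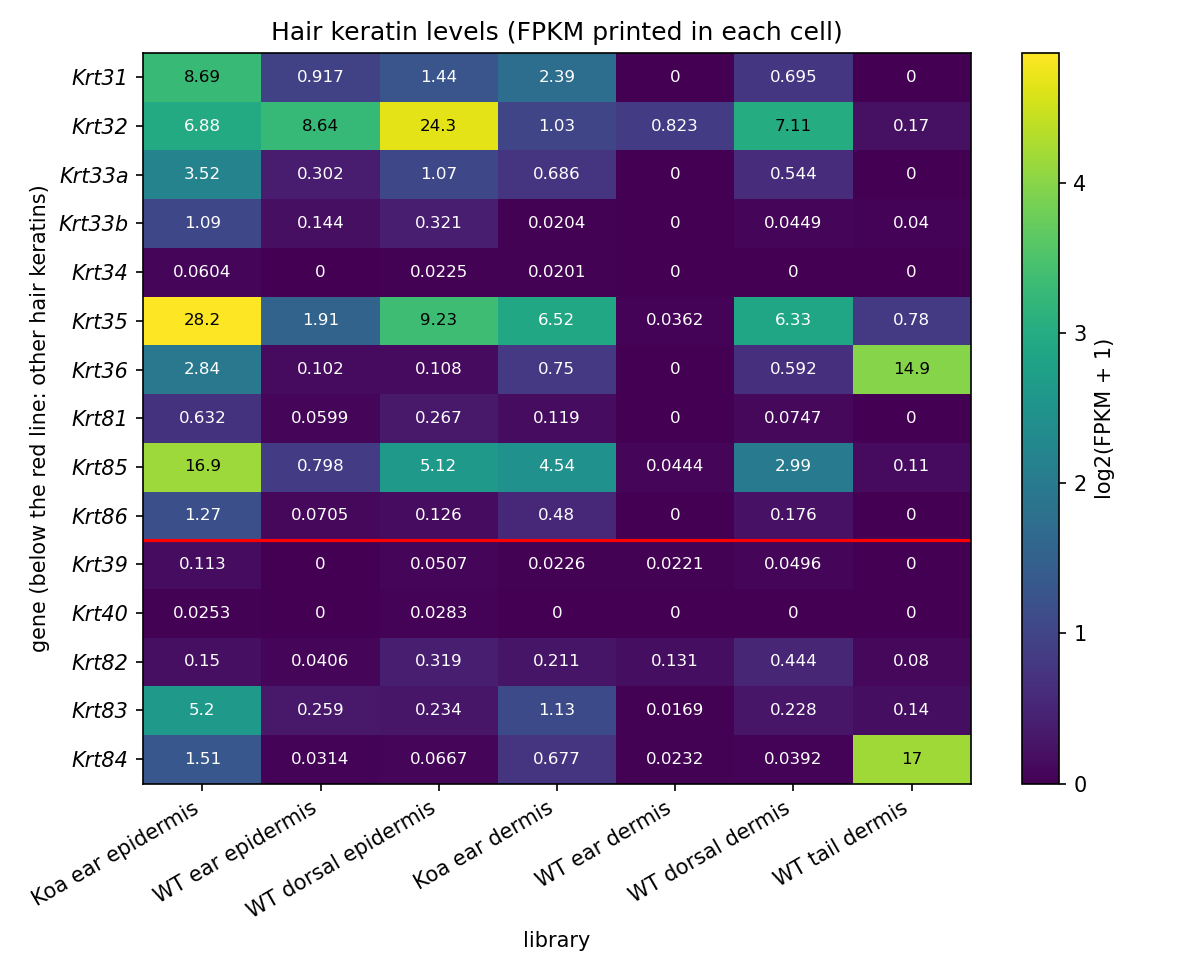
FPKM of the 10 hair shaft keratins (above the red line) and of 5 other hair keratins (below it) in each of the 7 libraries, with colour giving log2(FPKM + 1). Krt35 and Krt85 are highest in Koa ear epidermis at 28.2 and 16.9 FPKM, Krt32 is highest in WT dorsal epidermis at 24.3 FPKM, and Krt36 is highest in tail dermis at 14.88 FPKM.

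In ear epidermis, 9 of the 10 hair shaft keratins stood higher in the Koa library than in the WT library, and Krt32 stood lower. Krt35, the early type I keratin, stood at 28.2 FPKM in Koa ear, 1.91 in WT ear and 9.23 in WT back. Its ratio of Koa to WT ear was 14.8 (12.2 to 17.9). Krt85, the early type II keratin, followed the same order, with 16.9 FPKM in Koa ear, 0.798 in WT ear and 5.12 in WT back, and a Koa to WT ear ratio of 21.1. For both genes the Koa ear library was the highest of all 7.

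The cortical type I keratins were also highest in Koa ear epidermis. Krt31 stood at 8.69 FPKM in Koa ear, 0.917 in WT ear and 1.44 in WT back, a Koa to WT ear ratio of 9.48 (7.04 to 12.9). Krt33a stood at 3.52, 0.302 and 1.07 FPKM in the same order, with a ratio of 11.7 (7.18 to 20.1). For Krt31 the WT back and WT ear values lay close together beside the Koa value, while Krt33a showed a wider step between them. Krt33b stood at 1.09, 0.144 and 0.321 FPKM, with a ratio of 7.55 (3.52 to 18.2). Krt34 was barely detected, with 3 fragments in Koa ear epidermis, 0 in WT ear epidermis and 1 in WT dorsal epidermis, and at this depth no ratio can be given for it.

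The cortical type II keratins were low but ordered alike. Krt86 stood at 1.27 FPKM in Koa ear epidermis, 0.0705 in WT ear and 0.126 in WT back, a Koa to WT ear ratio of 18.0 (7.35 to 56.7). Krt81 stood at 0.632, 0.0599 and 0.267 FPKM, with a ratio of 10.5 (3.70 to 40.0), and stayed under 1 FPKM in every library. Krt83, a close copy of both that is no member of the set, stood at 5.20, 0.259 and 0.234 FPKM and was thus the most abundant of these 3 type II keratins in Koa ear. Krt36 stood at 2.84 FPKM in Koa ear, 0.102 in WT ear and 0.108 in WT back, a Koa to WT ear ratio of 27.9 (12.5 to 77.3). In WT dorsal epidermis Krt36 rested on 5 fragments and in WT ear on 6, so the wide interval of their ratio, 1.06 (0.257 to 4.19), leaves its direction undecided.

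Krt32, the cuticle keratin, had another order. It stood at 6.88 FPKM in Koa ear epidermis, 8.64 in WT ear and 24.3 in WT back, so it was the one member with its lowest epidermal value in Koa. The Koa to WT ear ratio was 0.796 (0.692 to 0.913), which lies below 1 beyond counting error and is closer to 1 than the ratios of the other members. In WT ear epidermis Krt32 was the most abundant of the 10.

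Counted by size, 6 of the 10 members were higher in Koa than in WT ear epidermis and 0 were lower. The rule takes genes with 1 FPKM or more in either library, which 8 of the 10 members reached, and asks that log2(FPKM + 1) differ by 1 or more. Of all 12062 genes that reached 1 FPKM, 2.15% were higher by this rule and 0.854% lower. The 6 were Krt35 (log2 difference 3.33), Krt85 (3.31), Krt31 (2.34), Krt33a (1.80), Krt36 (1.80) and Krt86 (1.08). Krt33b, at 0.87, and Krt32, at -0.29, reached 1 FPKM without passing. Over all 10 members the median difference was 1.44, beside -0.01 over all genes that reached 1 FPKM. The scale understates the differences of low genes such as Krt81. With a pseudocount of 5, or with only genes at 5 FPKM or more kept, the count was 3 (Krt31, Krt35 and Krt85).

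Other genes of the follicle were read from lists in the same pair of libraries, beside the same 2.15% of all genes higher and 0.854% lower. Of 8 inner root sheath genes, which build the sheath that moulds the shaft, 6 were higher and 0 lower, with a median of 2.13. Of 6 partners of the shaft, 3 were higher and 0 lower, namely Dsg4, a desmosomal cadherin of the shaft (2.50 against 0.113 FPKM), Padi3, an enzyme that modifies hair proteins (2.79 against 0.0778), and S100a3, a cuticle protein (17.3 against 5.36). Of 51 keratin-associated protein genes, which encode the matrix around the filaments, only 4 reached 1 FPKM, and 3 were higher: Krtap7-1 (12.7 against 0.237 FPKM), Krtap8-1 (11.9 against 0.726) and Krtap11-1 (6.53 against 0.277). Of the other hair keratins, 5 were in the table, and Krt83 and Krt84 were higher. Krt84, known like Krt36 from tongue and tail scale, stood at 1.51 against 0.0314 FPKM, which is 48.3 times as high (16.1 to 237). Of 6 genes of the companion layer and outer root sheath, 3 were higher, with a median of 1.15.

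The transcription factors of the hair matrix were less far apart than the keratins. Of 13, 0 were higher and 0 lower by the size rule, with a median of 0.35. Hoxc13 stood at 10.3 FPKM in Koa and 6.52 in WT ear epidermis, Foxn1 at 3.66 and 1.72, Lef1 at 1.99 and 0.824, and Dlx3 at 13.04 and 8.29. Others stood lower in Koa, namely Foxq1 at 19.1 and 26.0 FPKM (ratio 0.736, 0.703 to 0.770) and Prdm1 at 2.35 and 2.86 (0.822, 0.709 to 0.952). Trps1 (0.944) and Msx1 (0.950) also had ratios below 1, with intervals that held 1. Of 8 cycling cell markers 0 passed the rule, and their median was -0.45. Basal keratinocyte markers summed to 14823 FPKM in Koa and 12442 in WT ear epidermis with a median difference of 0.31, 0 of 8 past the rule. Suprabasal markers had a median of 0.30 with 1 of 6 higher (Krt77, 28.8 against 10.7 FPKM), fibroblast markers a median of 0.02 with 0 of 7 past the rule, and melanocyte markers a median of 0.03 with 0 of 6. Divided by the basal keratinocyte markers, 5 members were still higher, all of the 6 but Krt86, beside 1.33% of all genes on that scale. In these sorted pools, a larger share of follicle cells and more keratin RNA per cell cannot be told apart.

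Between WT back and WT ear epidermis all 10 members stood higher in the back as deposited, and with equal totals Krt36 stood lower (0.759 times). Only 5 of the 10 reached 1 FPKM in either library. Krt35 (ratio 4.84, 3.92 to 5.96), Krt85 (6.42) and Krt32 (2.82, 2.53 to 3.13) passed the size rule, a count of 3 with 0 lower. Of 12500 genes 11.5% were higher and 5.47% lower. Krt33a (3.54, 2.04 to 6.47), Krt81 (4.46, 1.41 to 18.7) and Krt31 (1.58, 1.07 to 2.33) had intervals above 1 but stayed under the size rule. The intervals of Krt33b (2.23, 0.876 to 6.16), Krt36 (1.06, 0.257 to 4.19) and Krt86 (1.79, 0.489 to 7.15) held 1. The median over all 10 was 0.30. The deposited FPKM of the 2 libraries sum to different totals. With equal totals the median of all genes moved from -0.02 to -0.46, 6.59% of genes were higher and 16.1% lower, and of the members Krt35 and Krt85 were still higher.

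Lists of other genes were read beside the 11.5% higher and 5.47% lower between back and ear among all genes that reached 1 FPKM. Some lists reached it only in part. These were the inner root sheath genes (6), the companion layer and outer root sheath (5), the fibroblast markers (5), the melanocyte markers (4) and the shaft partners (2). Of the inner root sheath genes 4 of 8 were higher, of the companion layer and outer root sheath 5 of 6, and of the suprabasal markers 4 of 6 with 1 lower. Of the matrix factors 2 of 13 were higher, of the fibroblast markers 2 of 7 and of the melanocyte markers 1 of 6, and of the cycling markers 2 of 8 were lower. Of the shaft partners 1 of 6 was lower, Tgm3, a transglutaminase of the follicle and epidermis (3.76 FPKM in the back, 35.1 in the ear). Basal markers had 0 of 8 past the rule. Only 2 of 51 keratin-associated protein genes reached 1 FPKM, and these 2 were higher, Krtap17-1 (2.95 against 0.755 FPKM) and Krtap3-2 (1.91 against 0.0299).

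Set against the hairy WT back, Koa ear epidermis was higher for 9 members and lower for Krt32. By the size rule 6 of the 8 members that reached 1 FPKM were higher and 1 lower. Of 12489 genes 3.52% were higher and 8.75% lower, and the median over all 10 members was 1.07. With equal totals the same 7 members passed, where 15.1% of genes were higher and 4.30% lower and the median of all genes moved from 0.02 to 0.52. These are the same 6 genes that passed between Koa and WT ear, and both comparisons use the Koa ear library. Krt36 had the widest ratio, 26.3 (10.98 to 81.9), followed by Krt86 at 10.1 (4.63 to 25.7) and Krt31 at 6.02 (4.57 to 7.91). Krt35 stood 3.05 times as high (2.74 to 3.40), Krt33a 3.29 times (2.39 to 4.59), Krt33b 3.38 times (1.82 to 6.52), Krt85 3.29 times and Krt81 2.36 times (1.22 to 4.63). Krt32 was 3.54 times as high in the back as in Koa ear (3.139 to 4.003), a log2 difference of -1.69. The interval of Krt32 lies below 1 and those of 7 other members above 1, while Krt34, with 3 fragments against 1, has an interval that holds 1. Divided by basal keratinocyte markers, Krt31, Krt35, Krt36 and Krt85 were still higher and Krt32 still lower, while Krt33a and Krt86 no longer passed, beside 1.54% of all genes higher and 16.5% lower on that scale. In this pair of libraries 4 of 8 inner root sheath genes, 3 of 6 shaft partners and 1 of 8 basal markers were higher in Koa ear and 0 lower. Of the companion layer and outer root sheath 3 of 6 were lower, of the matrix factors 2 of 13 and of the fibroblast markers 2 of 7, with 0 higher. Of the suprabasal markers 1 of 6 was higher and 3 were lower. Only 5 of 51 keratin-associated protein genes reached 1 FPKM, of which 3 were higher and 1 was lower.

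**Figure D2:**
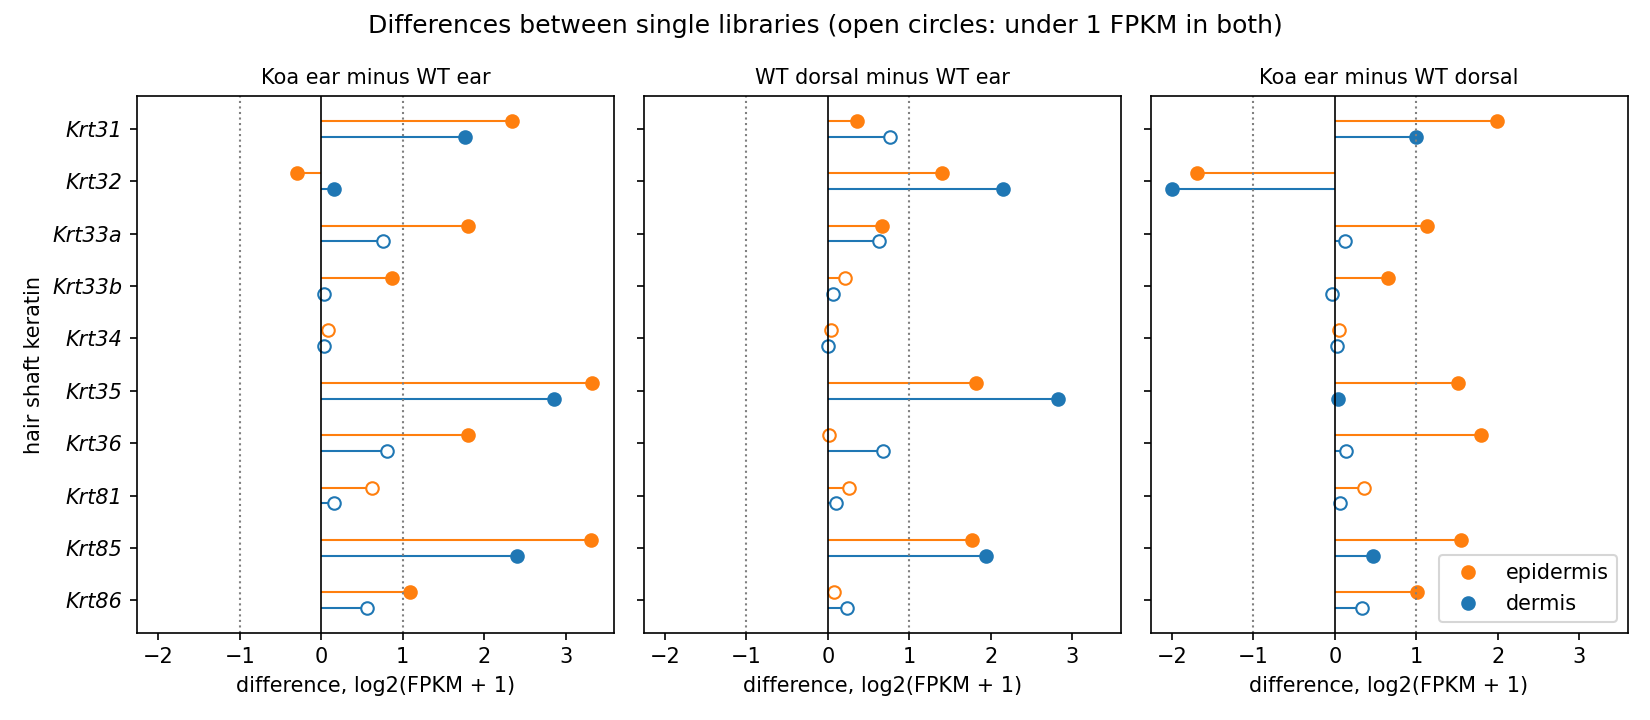
Difference of each hair shaft keratin on the log2(FPKM + 1) scale between single libraries, for epidermis (orange) and dermis (blue), with dotted lines at -1 and 1 and open circles for genes under 1 FPKM in both libraries. Krt32 lies at -1.69 and -2.00 between Koa ear and WT back while Krt31, Krt35 and Krt85 lie at or right of 0, and between Koa and WT ear Krt35 reaches 3.33 in epidermis and 2.86 in dermis.

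The make-up of the set followed from these orders. The 10 members summed to 70.0 FPKM in Koa ear epidermis, 12.9 in WT ear and 42.1 in WT back. Without Krt32 the sums were 63.1, 4.30 and 17.7 FPKM. Krt32 made up 9.82% of the summed FPKM in Koa ear epidermis, 66.8% in WT ear and 57.9% in WT back. Krt35 made up 40.2%, 14.7% and 22.0%, and Krt85 24.1%, 6.16% and 12.2%. Among these 10, the Koa ear profile was thus led by Krt35 and Krt85, and both WT profiles by Krt32. The cuticle protein gene S100a3 did not follow Krt32, with 17.3, 5.36 and 8.76 FPKM in the same order of libraries. Among the other hair keratins, Krt82 was low but like Krt32 highest in WT back, with 0.150, 0.0406 and 0.319 FPKM. Its lowest value was in WT ear, and the interval of its Koa ear to back ratio (0.472, 0.196 to 1.07) held 1. Krt83 and Krt84 were highest in Koa ear. In the number of members at 1 FPKM or more, Koa ear epidermis had 8, WT ear 2 and WT back 5.

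**Figure D3:**
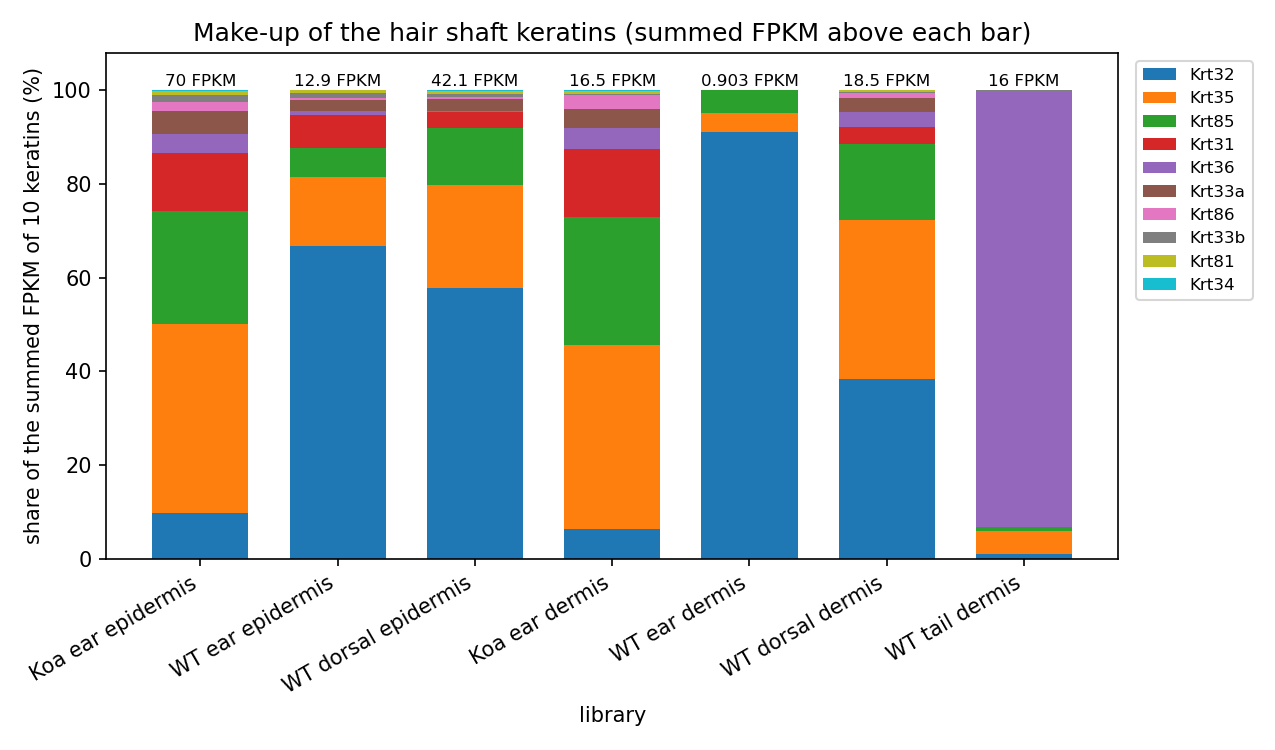
Share of each hair shaft keratin in the summed FPKM of the 10, in percent, with the sum printed above each bar. Krt32 takes 66.8% in WT ear epidermis and 91.1% in WT ear dermis but 9.82% and 6.24% in the Koa ear libraries, and Krt36 takes 93.1% in tail dermis.

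In Koa ear dermis all 10 members stood above WT ear dermis (9 once divided by basal keratinocyte markers, with Krt32 then lower). Krt33b and Krt34 did so on 1 fragment each against 0, and the interval of Krt32 held 1. In WT dorsal dermis 9 members stood above WT ear dermis, with Krt34 at 0 in both. In WT ear dermis hardly any RNA of the set was found. In WT ear dermis 7 of the 10 were listed at 0, Krt32 stood at 0.823 FPKM, Krt85 at 0.0444 and Krt35 at 0.0362, the last resting on 2 fragments. Krt35 stood at 6.52 FPKM in Koa ear dermis and 6.33 in WT dorsal dermis, and Krt85 at 4.54 and 2.99. The ratio of Koa to WT ear dermis was 180 for Krt35, with a wide interval of 49.6 to 1496. The early keratins were thus high in Koa ear and back alike, and close to the detection limit in WT ear.

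Krt31 stood at 2.39 FPKM in Koa ear dermis and 0.695 in WT dorsal dermis, and was listed at 0 in WT ear dermis. Krt36 stood at 0.750 and 0.592 FPKM in Koa ear and back, Krt33a at 0.686 and 0.544, Krt86 at 0.480 and 0.176, and Krt81 at 0.119 and 0.0747, and these 4 too were listed at 0 in WT ear. Krt33b stood at 0.0204 and 0.0449 FPKM, and Krt34 at 0.0201 FPKM in Koa ear and 0 in the back, which is 1 fragment. Of the type I keratins at 1 FPKM or more in Koa ear epidermis, Krt33b was the lowest in Koa ear dermis. Krt32 stood at 1.03 FPKM in Koa ear dermis against 0.823 in WT ear, a ratio of 1.26 (0.819 to 1.90) that came to 0.701 once divided by basal keratinocyte markers, and at 7.11 FPKM in the back, 8.64 times WT ear (6.27 to 12.1).

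By the size rule 3 members were higher in Koa than in WT ear dermis, Krt35 (log2 difference 2.86), Krt85 (2.41) and Krt31 (1.76), and 0 lower. Only 4 of the 10 reached 1 FPKM in either library. Of 13690 genes 1.71% were higher and 1.07% lower, and the median over all 10 members was 0.66. With a pseudocount of 5, or with genes at 5 FPKM or more, only Krt35 was counted. Between WT back and WT ear dermis 3 members were higher, Krt35 (2.82), Krt32 (2.15) and Krt85 (1.93), and 0 lower. These 3 were the only members that reached 1 FPKM in either library. Of 14234 genes 11.7% were higher and 7.05% lower (9.45% and 10.9% with equal totals). The median over all 10 was 0.65. These comparisons share the WT ear library.

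Keratinocyte RNA also differed between the dermal libraries. Basal keratinocyte markers summed to 1502 FPKM in Koa ear dermis, 583 in WT ear, 3948 in WT back and 133 in tail, and suprabasal markers to 716, 207, 2232 and 74.7. Between Koa and WT ear dermis 3 of 8 basal and 3 of 6 suprabasal markers were higher, with medians of 0.79 and 1.06. Between back and ear 7 of 8 basal markers were higher with a median of 2.32, and 5 of 6 suprabasal markers were higher with 1 lower. Fibroblast markers summed to 9851, 11129, 6023 and 7404 FPKM, and no basal marker was listed at 0 in any dermal library. Divided by the basal markers, Krt31, Krt35 and Krt85 still passed for Koa against WT ear dermis, beside 0.561% of all genes higher and 13.6% lower on that scale. For back against ear dermis only Krt35 still passed, beside 1.27% of all genes higher and 84.8% lower. The part of these cells in the keratin differences was not tested beyond this division.

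Koa ear dermis and WT dorsal dermis were closer to each other for most members. Krt35 had a ratio of 1.03 (0.882 to 1.21), Krt33a 1.26 (0.740 to 2.17), Krt36 1.27 (0.760 to 2.14), Krt81 1.59 (0.405 to 7.42) and Krt85 1.52. The intervals of the first 4 hold 1 and, for Krt35, leave room for at most 1.21 times more in Koa. Krt31 at 3.43 (2.27 to 5.24) and Krt86 at 2.73 (1.30 to 6.26) were higher in Koa beyond counting error, Krt31 with a log2 difference of 1.00 that lies just under the size rule. Krt32 was 6.88 times as high in the back (5.16 to 9.41), a log2 difference of -2.00, as in epidermis the one member lower in Koa by the size rule. In all, 0 of the 4 members that reached 1 FPKM were higher and 1 lower. Of 14223 genes 5.94% were higher and 9.63% lower, and the median over all 10 members was 0.09. With equal totals Krt31 also passed as higher, where 9.46% of genes were higher and 7.58% lower. Basal markers were lower in Koa for 6 of 8, with a median of -1.36, and divided by them 3 members were higher (Krt31, Krt35 and Krt85) and Krt32 still lower, beside 67.0% of all genes higher on that scale.

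Other follicle lists in dermis were read beside the shares of all genes that reached 1 FPKM. For Koa against WT ear 1.71% were higher and 1.07% lower. For back against ear these shares were 11.7% and 7.05%, and for Koa ear against back 5.94% and 9.63%. In each of these comparisons 6 inner root sheath genes and 5 companion layer and outer root sheath genes reached 1 FPKM. Of the inner root sheath genes 6 of 8 were higher in Koa than in WT ear, 5 of 8 in back than in ear, and 1 of 8 in Koa ear than in back. Only 3 of 51 keratin-associated protein genes reached 1 FPKM in Koa or WT ear dermis, and these 3 were higher in Koa. They were Krtap8-1 (4.12 FPKM), Krtap7-1 (2.83) and Krtap11-1 (2.13), each listed at 0 in WT ear. The same 3 were higher in Koa ear than in the back. Of the 6 genes of the companion layer and outer root sheath, 5 were higher in Koa than in WT ear, 5 were higher in back than in ear, and 5 were lower in Koa ear than in back. Of the matrix factors 0 of 13 passed for Koa against WT ear dermis, while for back against ear 9 were higher and 1 lower, and for Koa ear against back 1 was higher and 5 were lower. Of the shaft partners 2 of 6 reached 1 FPKM in Koa or WT ear dermis, and 1 was higher in Koa, S100a3 at 7.30 against 0.649 FPKM.

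The level in dermis as a share of the level in epidermis of the same site set most members apart from most basal and suprabasal keratinocyte markers in Koa ear. Of the 8 members at 1 FPKM or more in Koa ear epidermis, the dermal value was 1.88% to 37.8% of the epidermal value, with a median of 24.8%. Krt86 stood at 37.8%, Krt31 at 27.5%, Krt85 at 26.9%, Krt36 at 26.4%, Krt35 at 23.1%, Krt33a at 19.5%, Krt32 at 15.02% and Krt33b at 1.88%. Basal markers ranged from 9.81% to 43.9% with a median of 10.9%, where Dst alone stood above 13.9%, and suprabasal markers from 9.91% to 15.4%. Krt31, Krt33a, Krt35, Krt36, Krt85 and Krt86 thus lay above all of these markers but Dst, Krt32 lay within their range and Krt33b below it. The inner root sheath genes lay at 25.9% to 77.0%.

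In WT back the members were set apart less clearly. Their dermal share was 29.2% to 68.5% with a median of 50.9% over 5 genes. The median was 40.7% for basal and 38.9% for suprabasal markers. Krt32 was the lowest of the 5 members at 29.2%, and Krt35 the highest at 68.5%. Krt31 (48.1%), Krt33a (50.9%), Krt85 (58.4%) and Krt35 lay above all basal markers but Dst (75.8%). Of the suprabasal markers, Krt77 (53.0%) lay above Krt31 and Krt33a, and Lor (107%) above all 5 members. Of the members under 1 FPKM in this epidermis, which were left out, Krt36 (0.592 against 0.108 FPKM) and Krt86 (0.176 against 0.126) stood higher in dermis. Krt33b, Krt34 and Krt81 stood lower there. In WT ear, where 2 members reached 1 FPKM in epidermis, Krt32 stood at 9.52% and Krt35 at 1.90%, beside a basal median of 7.88%. These shares come from pairs of separately sorted libraries, so the sorting and the site cannot be told apart.

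**Figure D4:**
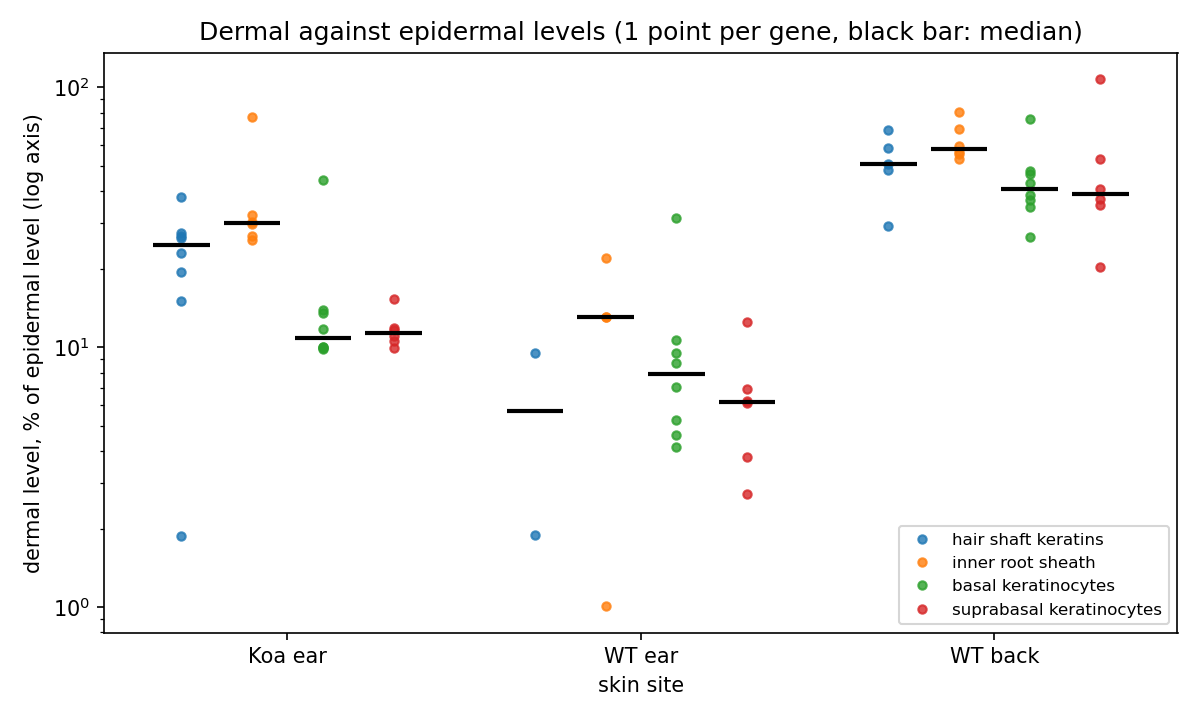
Dermal FPKM as a percentage of epidermal FPKM at the same site, on a log axis, with 1 point per gene at 1 FPKM or more in epidermis and a black bar at each median. In Koa ear the hair shaft keratins have a median of 24.8% and the basal markers 10.9%, and in WT back these medians are 50.9% and 40.7%.

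Tail dermis held Krt36 and little else of the set. Krt36 stood at 14.88 FPKM in the tail library, 0.750 in Koa ear dermis, 0.592 in WT dorsal dermis and 0 in WT ear dermis, and above its 2.84 FPKM in Koa ear epidermis. Krt35 stood at 0.78 FPKM in tail, Krt32 at 0.17, Krt85 at 0.11 and Krt33b at 0.04, and the other 5 members were listed at 0. Krt36 made up 93.1% of the summed 16.0 FPKM. Krt84, the type II keratin known from the same scale epidermis, stood at 17.0 FPKM in tail and at most 1.51 FPKM in every other library.

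Against WT dorsal dermis Krt36 was higher in tail (log2 difference 3.32) and Krt32 (-2.79), Krt35 (-2.04) and Krt85 (-1.85) were lower, 1 and 3 of the 4 members that reached 1 FPKM. Of 14063 genes 7.05% were higher and 29% lower. Against WT ear dermis Krt36 was the 1 member counted, as higher (3.99), where 6.32% of 13666 genes were higher and 27% lower. The medians over all 10 were -0.43 against the back and 0.00 against the ear.

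The tail column differs from the others in ways that touch these values. Over all genes that reached 1 FPKM its median difference was -0.48 against the back and -0.51 against the ear. Its values are rounded to 2 decimals, and a 0 in it may be a failed estimate, since 222 genes with at least 10 FPKM in every one of the other 6 libraries have a 0 there. Xist stood at 41.5 FPKM in tail and at most 0.122 elsewhere, and the Y-linked Ddx3y at 0 in tail and 33.1 to 38.3 elsewhere. By these genes the tail library is of female type and the other 6 of male type. Sex and site thus cannot be told apart in the tail comparisons. Basal markers were lower in tail for 7 of 8 against the back (median -4.57) and for 5 of 8 against the ear (-2.25). Divided by them, Krt33b, Krt35 and Krt36 were higher in tail than in the back, beside 89.8% of all genes, and Krt85 stood at 1.09 times the back. Melanocyte markers were higher for 5 of 6 against the ear, with a median of 3.53, and Hoxc13 stood at 14.35 FPKM in tail, 4.004 in WT dorsal dermis and 0.345 in WT ear dermis.

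Across the 6 ear and back libraries the other members varied more closely with each other than with Krt32, though their orders were not identical. Among the 8 members that reached 1 FPKM in any of these libraries, the 21 pairs without Krt32 had Pearson r of log2(FPKM + 1) between 0.761 and 0.987, with a median of 0.891. Krt35 and Krt85, the early pair, had the highest, 0.987. The 7 pairs with Krt32 had r between -0.00 and 0.483, with a median of 0.376. These are descriptions over 6 libraries that share layers, sites and genotype, and the close copies also share reads.

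The genes most like the mean of these 8 keratins over the 6 libraries, among 11658 that reached 5 FPKM, were Gga1 (r 0.972), Gtf2i (0.968), Gjb2 (0.966), Stx16 (0.966), Krt25 (0.963), Gnpat (0.961), Krt71 (0.960), Krt27 (0.960), Supt5h (0.954) and Krt28 (0.953). Gga1, from 21.6 to 25.7 FPKM, had a high r with hardly any range, since r takes no account of size. Gtf2i, Stx16, Gnpat and Supt5h spanned at most 1.64 times. The others spanned a wide range. Gjb2, a connexin of gap junctions, ran from 1.52 to 45.0 FPKM. Krt25, Krt27, Krt28 and Krt71 are keratins of the inner root sheath, of which Krt25 ran from 0.0190 to 33.3 FPKM and Krt71 from 0.0279 to 31.9. With the tail library added, Gjb2 (0.970), Stx16 (0.969), Krt25 (0.959) and Krt71 (0.947) stayed among the first 10, while Krt27 and Krt28 did not. Newly among them were Sugp1 (0.952), the cuticle protein gene S100a3 (0.945) and Krt75 (0.942), a keratin of the companion layer. Lima1 (0.934), Klhl17 (0.928) and Fbf1 (0.928) came last. Sugp1, Lima1, Klhl17 and Fbf1 spanned at most 1.87 times over the 6 ear and back libraries.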

How the data were processed

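The authors deposited FPKM for 22552 gene symbols in 7 libraries. TopHat2 (version 2.0.13) and Cufflinks (version 2.2.1) are the tools, and mm9 and GRCm38 the builds, listed per the submitters' processing notes. The role of each build and the annotation are not given in the sources used here. Differences were taken on the log2(FPKM + 1) scale, and genes with at least 1 FPKM in either library and a difference of at least 1 were counted. Col1a1, Col1a2 and Col3a1, listed at 0 in some libraries, were left out.

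Depth was recovered from values under 0.3 FPKM of genes with 1 transcript of at least 600 nt (GENCODE M21), with a length offset of 210 nt. Among the lowest of these values, 434 to 499 per library, between 71.8% and 76.2% lay within 6% of a whole fragment. Depth and offset were chosen for the largest such share, so it is no separate check. The procedure was tested on simulated data. Of the members' values of 1 to 20 fragments, 16 of 18 lay within 0.1 of a whole number. Ratio intervals are exact conditional binomial intervals at 95%. Groups follow the sample titles, and 8 pairs of libraries were compared without a test.

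The members, the lists and the comparisons were chosen with earlier results of these data known. Named genes were all 10 members, from each list at most 4 genes that lay furthest apart, and the 10 genes most like the members' mean. Krt82, Krt83, Krt84, Dst, Foxq1, Prdm1, Trps1 and Msx1 were named in further places after their values were seen. Flg, Krt72 and Krt87 were not analysed here. The alternatives tried were pseudocounts of 0.1 and 5, no filter, a filter at 5 FPKM, equal totals, and division by basal keratinocyte markers. Python 3.11.15 with pandas 2.3.3, NumPy 2.4.6, SciPy 1.17.1 and Biopython 1.88 was used.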

Additional observations from a re-analysis of the deposited data

Results flagged for a closer look

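Krt32 was the one member whose Koa ear library stood on opposite sides of the WT ear library in the 2 layers, with a log2 difference of -0.29 in epidermis and 0.16 in dermis. The difference between the layers was not tested. The epidermal ratio of 0.796 had a counting interval of 0.692 to 0.913, and the dermal ratio of 1.26 one of 0.819 to 1.90, which holds 1. Divided by basal keratinocyte markers the dermal ratio was 0.701, which puts both layers on the same side.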

How the results depend on the processing

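With 1 library per group no result has a replicate check, and depth limits Krt34, Krt81 and all members of WT ear dermis. Of 48 recomputed counts of members past the size rule, 35 stayed within 1.5 times of the reported count in the same direction. With a pseudocount of 5 the count was 3 in place of 6 between Koa and WT ear epidermis, 4 in place of 7 between Koa ear and back epidermis, 1 in place of 3 between Koa and WT ear dermis, and 2 in place of 4 between tail and back dermis. With a filter at 5 FPKM the first 3 of these were likewise 3, 4 and 1. Between Koa ear and back dermis the count of 1 became 2 with a pseudocount of 0.1 or with equal totals, as Krt31 then passed. Division by basal keratinocyte markers gave 1 in place of 3 between back and ear dermis. It gave 4 in place of 1 between Koa ear and back dermis, with most now higher. Between tail and ear dermis it gave 2 in place of 1, beside 70.7% of all genes higher and 6.36% lower on that scale. Between tail and back dermis it gave 3 in place of 4, all 3 higher, beside 89.8% of all genes higher. Dividing by basal markers also turned the direction of Krt32 between tail and ear dermis (ratio 1.04 in place of 0.207) and of Krt33b between Koa ear and back dermis (1.18 in place of 0.455), and equal totals that of Krt33b between tail and back dermis (1.13 in place of 0.892). No paired analysis was possible because each group has 1 library.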
